A study of Homo sapiens with 6 samples.

Results

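The genes described here are TXNIP, 3 further genes of the alpha-arrestin family (ARRDC2, ARRDC3 and ARRDC4) and the genes of the glucose-responsive transcription factor pair MondoA (MLXIP) and MLX. These 6 of the 59074 genes in the table were selected by symbol after the rise of TXNIP on HOTAIRM1 knock-down had been seen. Their changes in that comparison are therefore given as a description, with no p-value, and passing a threshold in it is no evidence about them. All 6 had a mean of at least 1 CPM (reads scaled to the size of the library, the measure in the table) over the libraries and were kept with the 14294 genes that passed this filter.

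RNA was sequenced 72 h post-transfection from 3 established glioblastoma cell lines, LN-229 (LNT229 in the sample titles), T98G and U251, transfected either with a non-target siPOOL (siControl) or with siPOOLs against the long non-coding RNA HOTAIRM1 (siHOTAIRM1). A siPOOL is a mixture of many siRNAs against 1 target. With 1 library for each condition and cell line, 6 in all, the 3 cell lines were used as replicates of the knock-down and no change within a single cell line could be tested. Both groups were transfected, and untransfected cells were not analysed here. The cell lines are single long-passaged lines rather than tumour samples. They were grown in DMEM with fetal bovine serum, and these genes are known to respond to the glucose of the medium.

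The alpha-arrestins are adaptor proteins that bind membrane transporters and receptors and bring NEDD4-family ubiquitin ligases to them, which leads to their removal from the cell surface. TXNIP is the family member that also binds thioredoxin, and it lowers glucose uptake by driving the internalisation of the glucose transporter GLUT1 (SLC2A1), an action that ARRDC4 shares. MondoA forms a dimer with MLX, senses glucose 6-phosphate, enters the nucleus and binds carbohydrate response elements in the promoters of TXNIP and ARRDC4, so that the RNA of both genes is widely used as a readout of glucose-derived metabolites. ARRDC3 is known for the down-regulation of beta-adrenergic receptors and of integrins, and ARRDC2 is the least studied of the 4.

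TXNIP occupies bases 145992435 to 145996579 of chromosome 1 (hg38, minus strand, ENSG00000265972), with 8 exons in TXNIP-204. ARRDC4 lies on chromosome 15 from 97960703 to 97973833 on the plus strand (ENSG00000140450), ARRDC3 on chromosome 5 from 91368631 to 91383317 on the minus strand (ENSG00000113369) and ARRDC2 on chromosome 19 from 18001132 to 18014102 on the plus strand (ENSG00000105643). MLXIP lies on chromosome 12 from 122078756 to 122147344 (ENSG00000175727) and MLX on chromosome 17 from 42567072 to 42573239 (ENSG00000108788), both on the plus strand. The library kit does not mark the strand, and 2 of the genes overlap a listed gene on the other strand. ARRDC3 overlaps ARRDC3-AS1, listed at 0.345 to 1.53 CPM, and MLX overlaps PSMC3IP, listed at 7.78 to 14.5 CPM, so that reads of the shared stretches could not be told apart.

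The promoter windows of the 6 genes were searched for the letters of the known elements of this pathway, after the sequences had been seen. RefSeq (GRCh38.p14) gave 9 windows for the 6 genes, each from 250 bases before to 50 bases after an annotated start, and 35116 windows in all. A carbohydrate response element consists of a pair of E-box-like units. The unit searched was CACGNG on either strand, and the pair was 2 such units in the same direction with 5 bases between them. The first window of TXNIP held such a pair at 88 to 72 bases before the start, in which the capitals below mark both units. Of all windows, 0.0570% (20) held the pair, and of the 9 windows only this one did. Pairs with other letters or another spacing, or outside the windows, were not searched for, so a window without a match does not show that a gene lacks the element. The E-box CACGTG, which is itself also a match to the unit, was found in the windows of ARRDC4 and MLX and in 7.26% of all windows. A unit of either direction was found in 30.5% of all windows. The forkhead core, searched as GTAAACA on either strand, is the element bound by FOXO factors, which TXNIP is also known to respond to. It was found in the first window of TXNIP, in the second window of ARRDC3 and in 3.42% of all windows. The following stretches carry these matches, 5′ to 3′ on the strand of the gene, with the match in capitals.
TXNIP pair, chr1:145996645-145996673, minus strand: gatgtgCACGAGggcagCACGAGcctccg
TXNIP forkhead core, chr1:145996688-145996711, minus strand: ggctcctgGTAAACAaggaccggg
ARRDC4 E-box, chr15:97960484-97960507, plus strand: cggcctgtgCACGTGcacgccgga
MLX E-box, chr17:42567041-42567064, plus strand: ggcgcgggtCACGTGggcacgcca
ARRDC3 forkhead core, chr5:91380111-91380134, minus strand: ccggcactTGTTTACcacggcgcg

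A match describes letters and not a bound site, and no binding was measured in these libraries. Of the genes tested on knock-down, 14 had a promoter window with the pair, a set that includes TXNIP, whose rise had led to its choice. None of the others passed the threshold in either direction, beside 0.423% upward and 1.71% downward of the 9458 tested genes with any window. The median change of these 14 genes was -0.10 on the log2 scale, against -0.07 for those with any window. GFPT1, which opens the hexosamine pathway that branches from glycolysis and which was named after its value was seen, was among them and gave -0.27 (SE 0.15, adjusted p = 0.343).

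**Figure D1:**
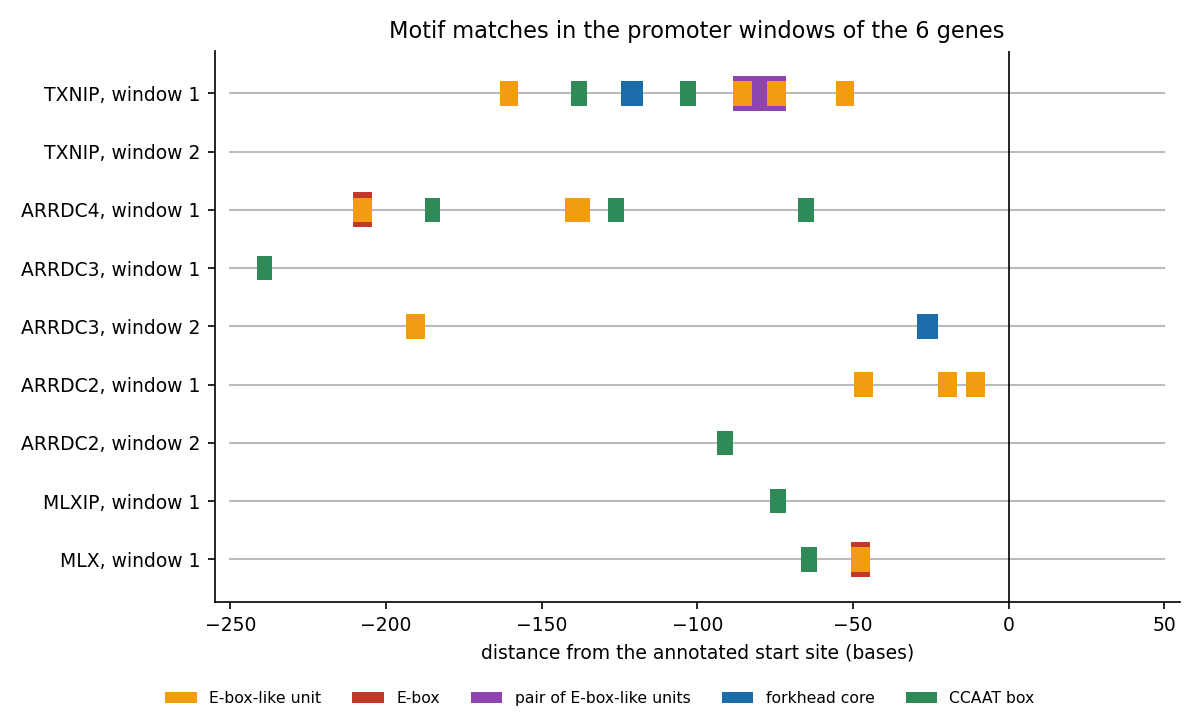
Matches to the 5 motifs in the 9 promoter windows of the 6 genes, with the distance from the annotated start site in bases on the horizontal axis and 1 window per line. Coloured blocks mark the stretch of each match on either strand. The pair of E-box-like units is seen in the first TXNIP window alone, from -88 to -72, and the E-box in the windows of ARRDC4 and MLX.

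The targeted RNA was checked first. HOTAIRM1 was at 1.99 CPM in siControl and 0.952 CPM in siHOTAIRM1 cells of LN-229, at 3.49 and 2.15 CPM in T98G and at 1.27 and 0.623 CPM in U251, which is 52.2%, 38.5% and 51.1% lower. By quantitative PCR, a different measure, the study reports a larger loss of HOTAIRM1 in each of these lines. Over the 3 cell lines the change was -0.54 on the log2(CPM + 1) scale (SE 0.12, limma adjusted p = 0.0146), a call that was lost without LN-229 (adjusted p = 0.0711) or T98G (adjusted p = 0.435). The depth is not stated with the values. As inferred from the spacing of low CPM values it was 52.3 to 104 M reads per library, of which 31.2 to 56.6 M lay on the listed genes, and 3 reads, taken as the smallest detectable level, corresponded to 0.0289 to 0.0574 CPM. The CPM of the listed genes summed to 47.0% and 48.5% of the full scale in siControl and siHOTAIRM1 cells of LN-229, to 50.2% and 42.9% in T98G and to 67.2% and 55.9% in U251, and the part of this difference in the changes of single genes was not tested. The glioma markers differed between the lines: GFAP was at 20.7 to 42.5 CPM in U251 and at 0.0435 to 0.317 CPM in the other lines. S100B was listed at 0.0001 CPM in T98G. NES was at 0.866 to 0.956 CPM in T98G and at 329 to 507 CPM in the other lines. SOX2 was at or below 0.0146 CPM in T98G and at 8.15 to 117 CPM in the other lines. SOX9 was at 0.0228 to 0.0290 CPM in LN-229 and at 10.3 to 47.1 CPM in the other lines. VIM was at 254 to 1794 CPM and CD44 at 304 to 819 CPM in the 6 libraries. Of 5 markers of other cell types, PTPRC, EPCAM and RBFOX3 were at or below 0.248 CPM, and the summed level of the 5 was 1.16 and 1.02 CPM in LN-229, 8.54 and 3.54 CPM in T98G and 1.19 and 0.364 CPM in U251, mostly of CD68. CD68 was at 0.785 and 0.801 CPM in siControl and siHOTAIRM1 cells of LN-229, at 7.80 and 2.72 CPM in T98G and at 1.06 and 0.324 CPM in U251. It alone of the 5 passed the filter, and its change had an adjusted p under 0.05 in the same limma fit. The cultures were of cell lines, which the study authenticated by short tandem repeat profiling, and which cells carried CD68 RNA was not tested. In these bulk libraries, fewer cells with a given RNA and less of it per cell cannot be told apart.

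Between siControl and siHOTAIRM1 cells, changes are given as differences of log2(CPM + 1), siHOTAIRM1 minus siControl. Over all genes tested the median change was 0.01 for LN-229, -0.19 for T98G and -0.03 for U251, so a gene of T98G with the same CPM in both libraries lay above most others. Mean changes are also given with these medians subtracted. Ratios of CPM within a cell line are given with 95% intervals, which cover counting error only and not the spread between libraries.

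TXNIP was higher in siHOTAIRM1 than in siControl cells of all 3 cell lines, and of the 6 genes it showed the largest mean change. In LN-229 it was at 4.93 CPM in siControl and 18.3 CPM in siHOTAIRM1 cells, a ratio of 3.71 (3.34 to 4.12). In U251 it was at 4.84 and 34.2 CPM, a ratio of 7.06 (6.21 to 8.06). In T98G it was at 102 and 159 CPM, a ratio of 1.56 (1.52 to 1.61). The ratio was thus highest in U251 and lowest in T98G, the line with the highest siControl level, and the ranges of siControl and siHOTAIRM1 over the 3 lines overlapped because both T98G libraries lay above all others. On the log2(CPM + 1) scale the changes were 1.70 for LN-229, 0.64 for T98G and 2.59 for U251, with a mean of 1.64 ± 0.98 (SD, n = 3), and above each line's median of all genes they were 1.69, 0.83 and 2.62 (mean 1.71 ± 0.89). In absolute terms, however, T98G gained the most, since its difference of CPM between the libraries exceeded the whole level of TXNIP in the other lines. With 1 library per cell line and condition, the difference of the change between the lines was not tested.

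ARRDC4, the second glucose-responsive alpha-arrestin, was likewise higher in siHOTAIRM1 cells of all 3 lines. In T98G it was at 7.66 and 14.7 CPM (529 and 1069 reads), a ratio of 1.92 (1.73 to 2.13). In LN-229 it was at 1.57 and 2.46 CPM (139 and 256 reads), a ratio of 1.56 (1.27 to 1.94). In U251 it was close to the detection limit, at 0.0192 CPM in siControl cells (1 read) and 0.277 CPM in siHOTAIRM1 cells (28 reads), and the ratio of 14.4 had an interval from 2.39 to 591. The intervals of LN-229 and T98G overlapped for ARRDC4, whereas those of TXNIP did not, and in U251 the width of the interval left the size of the ratio undetermined. On the log2(CPM + 1) scale, which compresses the changes of low genes, the mean was 0.54 ± 0.28 (SD, n = 3), or 0.61 ± 0.38 with the medians subtracted.

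The other alpha-arrestins did not follow 1 pattern. ARRDC3 was at 18.1 and 23.0 CPM in LN-229, a ratio of 1.27 (1.19 to 1.35), and at 49.3 and 82.3 CPM in U251, a ratio of 1.67 (1.60 to 1.74). In T98G it was at 61.8 and 62.5 CPM, a ratio of 1.01 (0.969 to 1.05) whose interval included 1. Its values were thus nominally higher in all 3 lines, with a mean change of 0.36 ± 0.36 (SD, n = 3), or 0.43 ± 0.29 with the medians subtracted. ARRDC2 was at 4.25 and 3.99 CPM in LN-229, at 7.09 and 5.13 CPM in T98G and at 4.71 and 5.06 CPM in U251. The ratio of ARRDC2 had an interval below 1 in T98G (0.723, 0.630 to 0.829), while the intervals in LN-229 (0.940, 0.815 to 1.08) and U251 (1.07, 0.921 to 1.26) included 1, and the mean change was -0.13 ± 0.25 (SD, n = 3), or -0.06 ± 0.16 with the medians subtracted. Without T98G that mean was 0.0070. Of the 2 remaining alpha-arrestin genes, ARRDC1 was at 1.87 to 2.88 CPM in the 6 libraries (change 0.05, SE 0.13, adjusted p = 0.872), and ARRDC5 was listed at 0.0001 CPM in 5 libraries and at 0.0114 CPM in 1.

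The transcription factors that act on TXNIP were measured at moderate levels in every library. MLXIP (MondoA) was at 18.3 and 21.9 CPM in LN-229, a ratio of 1.20 (1.13 to 1.28), at 18.2 and 20.1 CPM in T98G, a ratio of 1.10 (1.02 to 1.19), and at 21.5 and 33.5 CPM in U251, a ratio of 1.56 (1.45 to 1.67). MLXIP was thus higher in siHOTAIRM1 cells of all 3 lines, with the highest ratio in U251, and its mean change was 0.33 ± 0.25 (SD, n = 3), or 0.40 ± 0.21 with the medians subtracted. MLX was at 22.2 and 26.9 CPM in LN-229, at 24.8 and 22.3 CPM in T98G and at 42.6 and 48.2 CPM in U251, with ratios of 1.21 (1.15 to 1.29), 0.900 (0.841 to 0.964) and 1.13 (1.08 to 1.19). The direction of MLX in T98G depended on the scaling: its change was -0.15 as deposited and 0.04 after subtraction of the line's median. The mean change of MLX was 0.10 ± 0.22 (SD, n = 3), or 0.17 ± 0.11 with the medians subtracted.

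**Figure D2:**
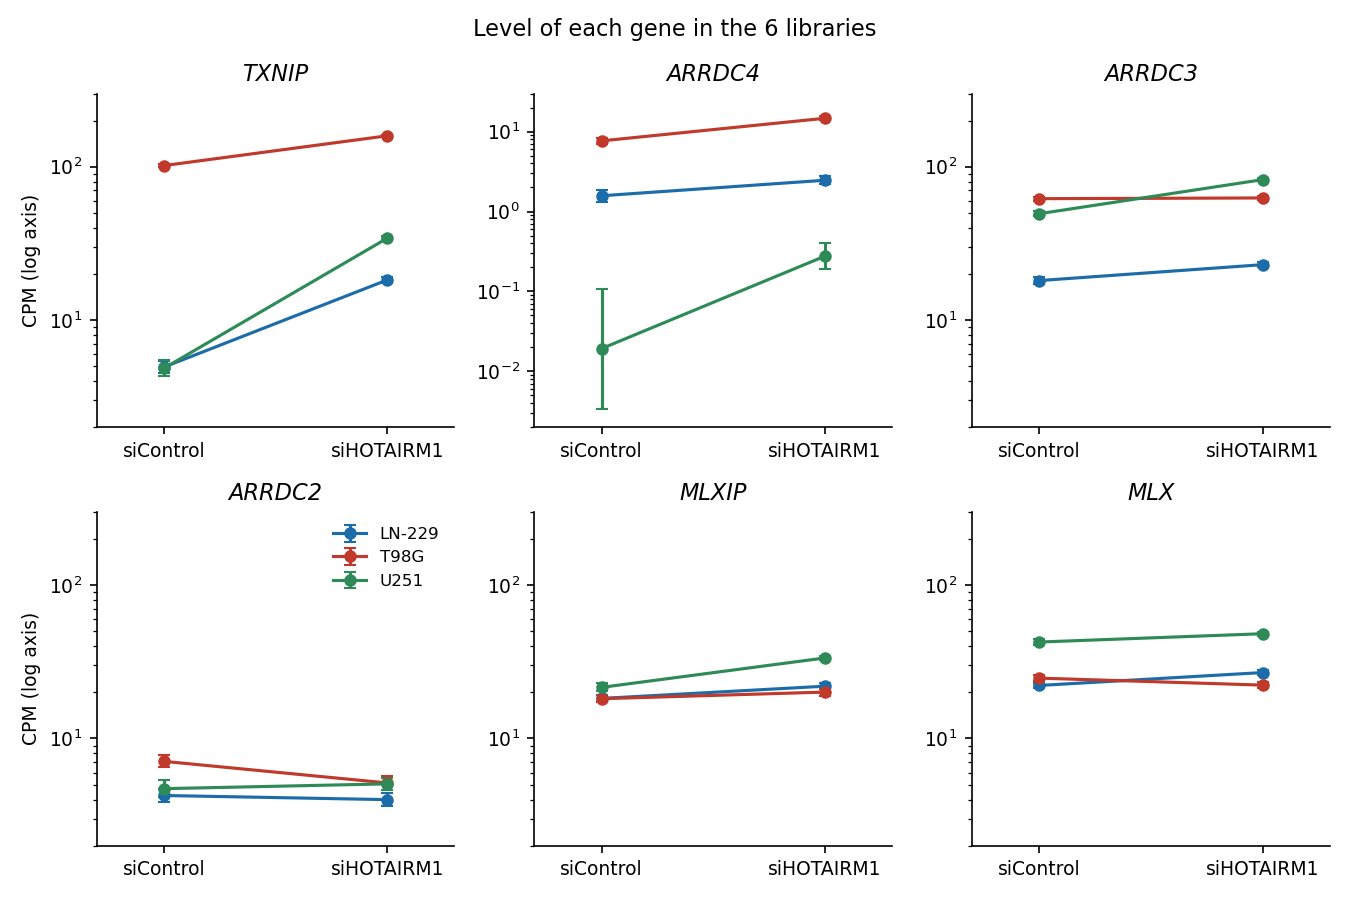
CPM of each of the 6 genes (log axis) in siControl and siHOTAIRM1 libraries, 1 colour per cell line, with a line joining the libraries of a cell line. Error bars are 95% intervals of the reads and cover counting error only. TXNIP of LN-229 and U251 starts near 5 CPM and ends at 18.3 and 34.2 CPM, below both T98G libraries, while ARRDC4 of U251 lies near the detection limit (its panel has its own axis range).

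Among the 6 genes, TXNIP and ARRDC4 were past the threshold of an adjusted p of 0.05 (limma with the cell line as block) in the upward direction and 0 in the downward direction. Since this comparison chose the genes, the count is no evidence about them. Both were below the threshold with no replicate block, with no filter, for a paired t-statistic without pooling over genes and without T98G, settings under which 0 genes passed in all, and ARRDC4 was also below it after median centring, with no variance trend and without LN-229. Of all 14294 genes tested, 0.413% (59) were past it upward and 1.59% (227) downward. The median change of the 6 genes was 0.35, against -0.07 over all genes tested, which is likewise no evidence about them.

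**Figure D3:**
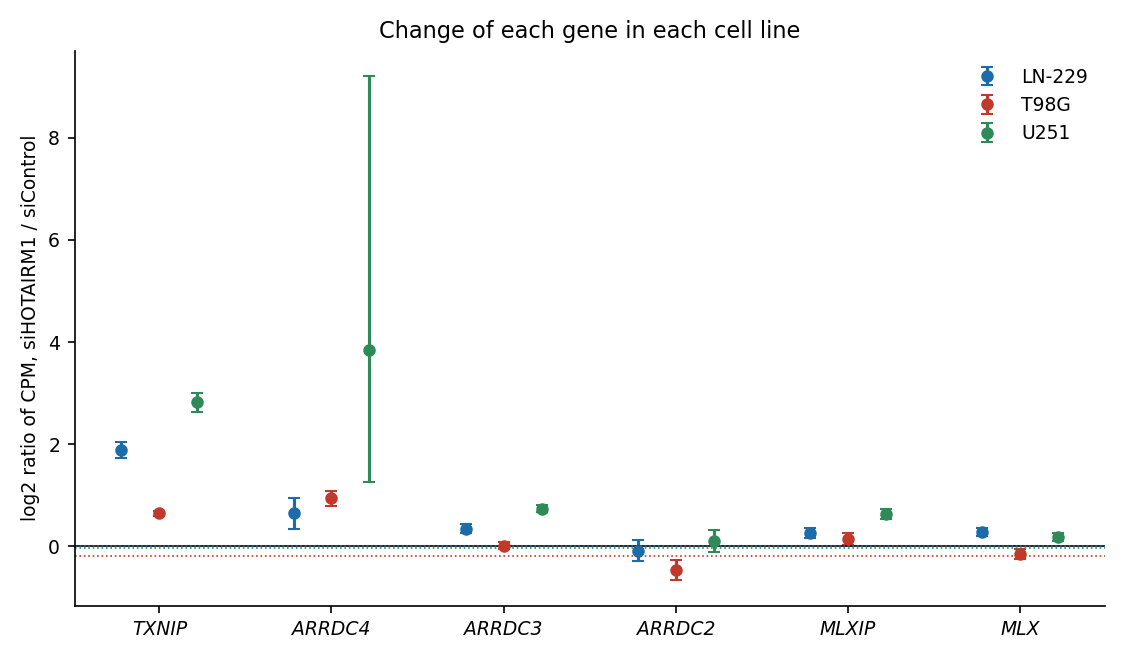
Change of each gene in each cell line as the log2 of the ratio of CPM, siHOTAIRM1 over siControl, with 95% counting intervals. Dotted lines mark the median change of all genes in each cell line on the log2(CPM + 1) scale, -0.19 in T98G. The points of TXNIP, ARRDC4, ARRDC3 and MLXIP lie above 0 in all 3 lines, that of ARRDC3 in T98G with an interval that includes 0, and the wide interval of ARRDC4 in U251 stems from 1 read in the siControl library.

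To compare the alpha-arrestins with each other, CPM was divided by the length of each gene's reference transcript in kb. The sum of TXNIP, ARRDC2, ARRDC3 and ARRDC4 was 8.05 and 13.9 CPM per kb in siControl and siHOTAIRM1 cells of LN-229, 54.3 and 75.1 in T98G and 15.2 and 33.3 in U251. TXNIP made up 21.1% and 45.2% of this sum in LN-229, 64.4% and 72.8% in T98G and 11.0% and 35.4% in U251. ARRDC3 was the largest part in the siControl libraries of LN-229 (53.0%) and U251 (76.6%) and still the largest part in U251 after knock-down (58.3%). ARRDC4 did not exceed 4.82% in any library. The lines thus differed in which alpha-arrestin RNA was the most abundant: TXNIP in T98G under both conditions, ARRDC3 in U251 under both, and ARRDC3 and then TXNIP in LN-229.

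**Figure D4:**
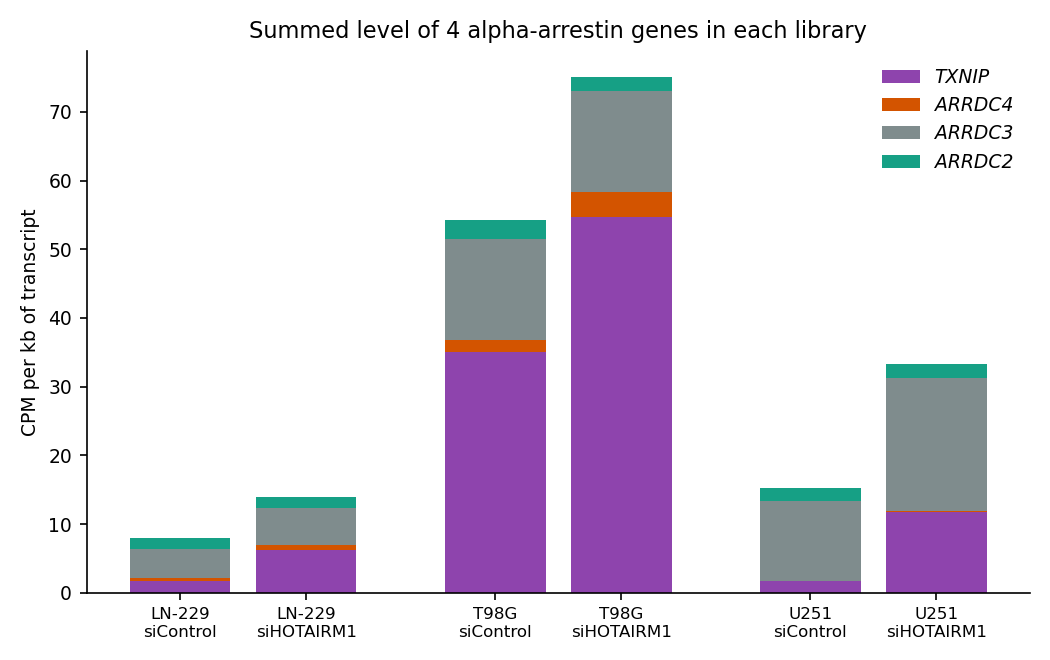
Level of 4 alpha-arrestin genes in CPM per kb of reference transcript, stacked for each of the 6 libraries. TXNIP fills 64.4 to 72.8% of the bars of T98G, and in LN-229 and U251 its part is larger in the siHOTAIRM1 bar than in the siControl bar.

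The levels between cell lines had no part in choosing the genes and were tested in the same limma fit, as contrasts of the cell line terms with the condition as covariate (2 libraries per line). Of all genes tested, 54.9% passed the threshold between T98G and LN-229, 60.6% between U251 and LN-229 and 64.2% between U251 and T98G, and 4 of the 6 genes did so in each contrast, so passing it did not set these genes apart. The error in this fit is largely pooled over genes, and the spread of TXNIP between the lines' own changes (SD 0.98) was larger than that error implies. To a smaller degree this also held for ARRDC3 (SD 0.36) and ARRDC4 (SD 0.28). The adjusted p-values of TXNIP, ARRDC3 and ARRDC4 between lines therefore overstate their certainty. With no filter the SE of the TXNIP difference between T98G and LN-229 was 0.46 and the limma adjusted p was 0.00667. That fit still pools part of the error over genes, so this SE is not the error of TXNIP alone.

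T98G carried the most TXNIP under both conditions. On the log2(CPM + 1) scale it exceeded LN-229 by 3.58 (SE 0.24, adjusted p = 1.71e-15), and U251 was below it by 3.16 (-3.16, SE 0.24, adjusted p = 6.5e-14). In siControl cells the level in T98G was 20.6 times that of the next line, LN-229, and in siHOTAIRM1 cells it was 4.65 times that of the next line, U251. LN-229 and U251 did not differ past the threshold (0.42, SE 0.24, adjusted p = 0.124): their siControl levels were nearly equal, at 4.93 and 4.84 CPM, and their order turned with knock-down. This difference rested on single libraries, being 1.13 without the siControl library of U251 (adjusted p = 3.89e-05) and -0.29 without its siHOTAIRM1 library (adjusted p = 0.343).

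ARRDC4 had the same highest line as TXNIP but separated the other two. T98G exceeded LN-229 by 1.97 (SE 0.17, adjusted p = 1.12e-12), and U251 was below LN-229 (-1.39, SE 0.17, adjusted p = 5.58e-09) and below T98G (-3.35, SE 0.17, adjusted p = 3.89e-19). The fitted differences with U251 depend on the pseudocount because its levels were below 1 CPM. ARRDC3 was lower in LN-229 than in T98G (T98G minus LN-229 1.56, SE 0.18, adjusted p = 3.8e-09) and in U251 (U251 minus LN-229 1.60, SE 0.18, adjusted p = 2.25e-09), while T98G and U251 did not differ past the threshold (0.04, SE 0.18, adjusted p = 0.881). ARRDC2 differed little between the lines: T98G exceeded LN-229 by 0.46 (SE 0.18, adjusted p = 0.0269), a call that was lost when any 1 library of these lines was left out (adjusted p = 0.0591 to 0.419) or no filter was used (0.108), and U251 lay between them without passing the threshold against either (adjusted p = 0.336 and 0.198), although it passed against T98G after median centring (adjusted p = 0.0182).

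The transcription factor genes were ordered differently from TXNIP and ARRDC4. MLX was highest in U251, above LN-229 by 0.86 (SE 0.17, adjusted p = 6.62e-05) and above T98G by 0.92 (SE 0.17, adjusted p = 2.56e-05), and LN-229 and T98G did not differ past the threshold (-0.05, SE 0.17, adjusted p = 0.81). MLXIP was also highest in U251, by 0.41 against LN-229 (SE 0.18, adjusted p = 0.044) and by 0.47 against T98G (SE 0.18, adjusted p = 0.0192), but both calls were lost when each library was centred on its median (adjusted p = 0.113 and 0.135) or no filter was used (0.124 and 0.0808). The first was also lost when any library but the siControl library of U251 was left out (adjusted p = 0.0607 to 0.521), and the second without the siHOTAIRM1 library of T98G (adjusted p = 0.249) or U251 (adjusted p = 0.374). T98G and LN-229 did not differ past the threshold in MLXIP (-0.06, SE 0.18, adjusted p = 0.777). T98G, which had the highest TXNIP and ARRDC4, did not have the highest MLXIP or MLX. These are RNA levels, and the activity of the factors was not tested. MLXIPL, which encodes ChREBP, the MondoA paralogue of liver and fat, did not pass the filter on low values.

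The other genes of the pathway were taken from 9 lists of 122 genes, of which 99 passed the filter. On knock-down 0 of the 99 passed the threshold upward and 2 downward, both in the thioredoxin list, beside 0.413% and 1.59% of all genes. The median change of the 99 was -0.06, against -0.07 over all genes tested.

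The thioredoxin system is the redox relay whose small protein thioredoxin is bound by TXNIP. Of its 21 genes, all tested, 2 fell, 0 rose and 19 did not pass the threshold. The median change of the list was -0.31, and 20 of the 21 values were below 0, against 9114 of 14294 over all genes. TXN, which encodes the cytosolic thioredoxin itself, was at 38.1 and 27.1 CPM in siControl and siHOTAIRM1 cells of LN-229, at 84.6 and 64.8 CPM in T98G and at 106 and 41.7 CPM in U251 (change -0.72, SE 0.16, adjusted p = 0.0107). MSRB3, a methionine sulfoxide reductase that is recycled by thioredoxin, was at 31.2 and 21.4 CPM in LN-229, at 7.79 and 3.64 CPM in T98G and at 16.1 and 10.1 CPM in U251 (change -0.69, SE 0.14, adjusted p = 0.00716). Both were lower in siHOTAIRM1 cells of all 3 lines, with the largest fall of TXN in U251 (-1.32) and that of MSRB3 in T98G (-0.92), the lines with the highest and the lowest ratio of TXNIP. The peroxiredoxin genes PRDX1 and PRDX6 gave -0.24 (SE 0.18, adjusted p = 0.494) and -0.48 (SE 0.15, adjusted p = 0.0826). The thioredoxin reductase gene TXNRD1 gave -0.15 (SE 0.18, adjusted p = 0.679). With a pseudocount of 0.1, PRDX6, PRDX3 and GLRX of this list passed the threshold downward as well. The list's lower values came from T98G, with a median of -0.38, and U251, with -0.40, where all 21 genes were lower, while in LN-229 the median was 0.00 and 10 of 21 were lower. With the medians of all genes subtracted, the list lay at -0.19 in T98G and -0.37 in U251, with 18 and 19 of 21 genes below 0. The calls of TXN and MSRB3 were both lost after centring on the library medians (adjusted p = 0.176 and 0.0632), without T98G (0.421 and 0.581), with no filter on low values (0.677 for each), with no replicate block (1 for each after rounding) and by a paired t-statistic without pooling over genes (0.637 for each). That of TXN was also lost without U251 (adjusted p = 0.547) and that of MSRB3 without LN-229 (adjusted p = 0.0507).

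The other targets of MondoA and ChREBP, the genes with which TXNIP and ARRDC4 share their regulators, were enzymes and factors of sugar and lipid metabolism. Of 20 listed genes 15 were tested, 0 passed the threshold in either direction, 2 had an unadjusted p under 0.05, and the median change was -0.08. The most abundant were SCD, the stearoyl-CoA desaturase (-0.22, SE 0.21, adjusted p = 0.620), LDHA, the lactate dehydrogenase subunit (-0.24, SE 0.16, adjusted p = 0.424), and ACLY, the ATP citrate lyase (-0.12, SE 0.17, adjusted p = 0.749). HK2, the inducible hexokinase, had the highest value of the list and was named after it was seen: it was at 20.2 and 32.0 CPM in LN-229, at 20.4 and 16.1 CPM in T98G and at 12.5 and 37.3 CPM in U251 (0.61, SE 0.19, adjusted p = 0.0788), and it passed the threshold with a pseudocount of 0.1. As with TXNIP, its ratio was highest in U251, but in T98G the siHOTAIRM1 level was the lower one.

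Among partners of MLX and MAX, the E-box-binding network that includes MondoA, 11 of 12 genes were tested and none passed the threshold (1 with an unadjusted p under 0.05, median 0.04). MGA, a repressor that dimerises with MAX, was at 34.7 to 78.8 CPM (0.16, SE 0.14, adjusted p = 0.566), and the E-box factors USF1 and USF2 gave -0.14 (SE 0.14, adjusted p = 0.635) and -0.21 (SE 0.14, adjusted p = 0.441).

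The glucose transporters and the enzymes that trap glucose as its phosphate are the cargo and the input of the pathway. Of 20 genes 10 were tested, none passed the threshold (1 with an unadjusted p under 0.05), and the median was -0.06. SLC2A1, the transporter GLUT1, was at 57.5 and 47.2 CPM in LN-229, at 151 and 101 CPM in T98G and at 166 and 229 CPM in U251 (-0.13, SE 0.17, adjusted p = 0.726). It was lower in siHOTAIRM1 cells of LN-229 and T98G and higher in those of U251. HK1, the constitutive hexokinase, gave 0.02 (SE 0.16, adjusted p = 0.962), and ADPGK, an ADP-dependent glucokinase, gave -0.10 (SE 0.15, adjusted p = 0.769). SLC2A3, the high-affinity transporter GLUT3 and again named after its value was seen, was the highest of the list (0.45, SE 0.16, adjusted p = 0.115), at 6.39 and 9.60 CPM in LN-229, 39.1 and 36.5 CPM in T98G and 11.8 and 23.5 CPM in U251, and it passed the threshold with a pseudocount of 0.1.

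The NEDD4-family ligases and their adaptors, the enzymes that alpha-arrestins recruit, were all tested (11 genes), and none passed the threshold (3 with an unadjusted p under 0.05, median -0.18). NEDD4 gave -0.33 (SE 0.15, adjusted p = 0.248), ITCH, the ligase known to ubiquitinate TXNIP itself, gave -0.18 (SE 0.15, adjusted p = 0.525), and SMURF2 gave -0.11 (SE 0.15, adjusted p = 0.734). Of the FOXO factors and their targets 17 of 19 were tested, none passed (1 with an unadjusted p under 0.05, median 0.06), and FBXO32, FOXO3 and RBL2 gave -0.20 (SE 0.16, adjusted p = 0.533), 0.08 (SE 0.15, adjusted p = 0.816) and -0.05 (SE 0.14, adjusted p = 0.897).

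Glucocorticoids also induce TXNIP, and the list of their receptor and its targets had 8 of 10 genes tested with none past the threshold (2 with an unadjusted p under 0.05, median 0.00), although CEBPD passed it upward with a pseudocount of 0.1. The receptor gene NR3C1 was at 44.7 to 116 CPM (-0.04, SE 0.15, adjusted p = 0.928), ERRFI1 gave 0.10 (SE 0.15, adjusted p = 0.768) and SGK1 gave 0.03 (SE 0.15, adjusted p = 0.944). The list of the beta-arrestins, the retromer subunits with an arrestin fold and their relative DSCR3 had 5 of 7 genes tested and none past the threshold (0 with an unadjusted p under 0.05, median -0.02). DSCR3, VPS26B and VPS26A gave -0.19 (SE 0.14, adjusted p = 0.484), -0.02 (SE 0.14, adjusted p = 0.964) and -0.12 (SE 0.14, adjusted p = 0.693). With no genes called in 8 of the lists, a change too small for 3 cell lines to show was not detectable rather than shown to be absent.

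**Figure D5:**
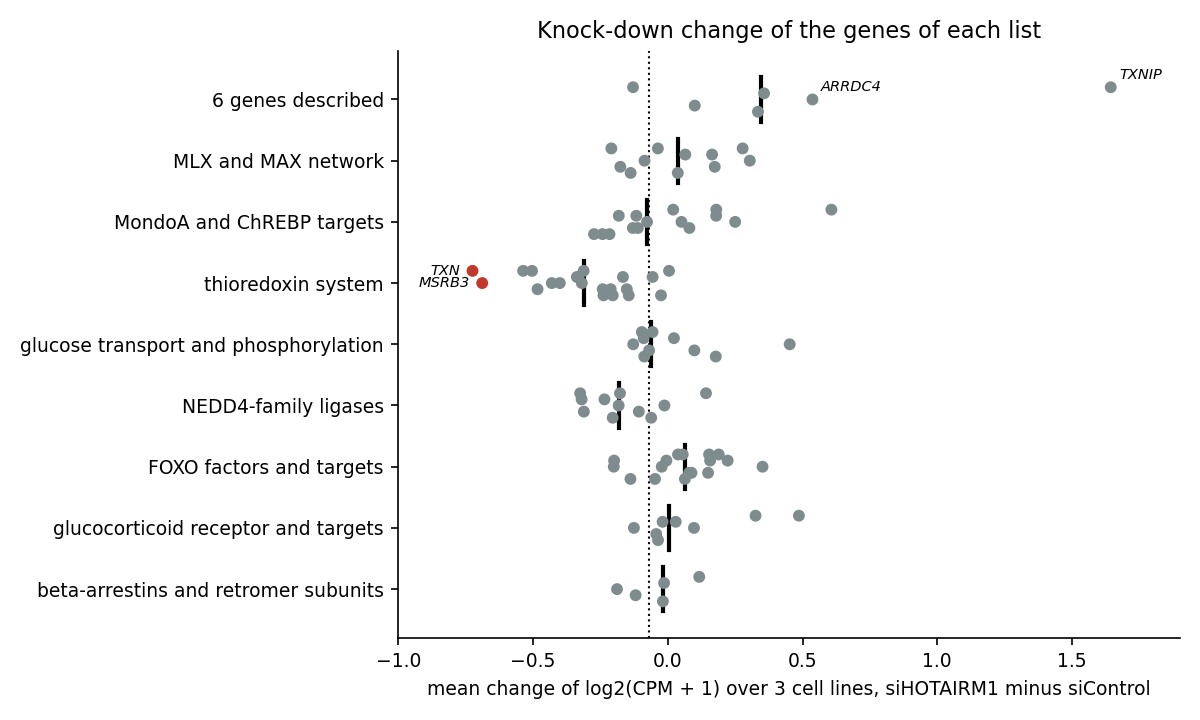
Mean change over 3 cell lines of log2(CPM + 1), siHOTAIRM1 minus siControl, of the tested genes of 8 pathway lists and of the 6 genes described. Each point is a gene, black bars are list medians, the dotted line is the median of all genes tested (-0.07), and red marks list genes past an adjusted p of 0.05. TXNIP stands at 1.64, and the red points TXN and MSRB3 belong to the thioredoxin system.

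Over the 6 libraries the genes whose log2(CPM + 1) followed TXNIP most closely, by Pearson's r, were GNA12 (0.996), a G-protein alpha subunit gene, FOXK1 (0.991), a forkhead factor gene, RP11-299J3.8 (0.991), CCNL1 (0.990), a cyclin gene, and KMT2B (0.988), a histone methyltransferase gene. GNA12 was at 21.6 and 29.0 CPM in LN-229, at 41.9 and 43.8 CPM in T98G and at 21.6 and 34.0 CPM in U251, an order of libraries that differed from that of TXNIP in the lowest pair alone, over a smaller range. The genes most like ARRDC4 were ZBTB46 (0.996), AXIN2 (0.995), ZNF720 (0.992), PLXNB2 (0.991) and N6AMT1 (0.991). Among the 6 genes themselves, TXNIP had an r of 0.80 with ARRDC4, 0.66 with ARRDC2, 0.62 with ARRDC3, 0.01 with MLXIP and -0.29 with MLX. More than 1000 genes were closer to TXNIP than ARRDC4 was (it ranked 1185). The 6 points share 3 cell lines, so these values mostly describe the difference between the lines.

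The genes ITGA10, RBM8A, LIX1L, POLR3GL and NBPF10, which lie within 100 kb of TXNIP on chromosome 1 and passed the filter, had smaller changes than TXNIP in each cell line. Their changes in single lines ran from -0.22 to 0.66. RBM8A, an exon junction complex gene, gave 0.33 for LN-229, -0.00016 for T98G and 0.50 for U251, and NBPF10, a member of a multicopy family whose reads could be split between copies, gave 0.11, -0.07 and 0.66. No listed gene overlaps TXNIP itself.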

How the data were processed

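RNA-seq libraries of 3 established glioblastoma cell lines (siControl or siHOTAIRM1, 1 library each) were analysed. The authors worked in Partek Flow. Trimmed reads were aligned to hg38 with STAR 2.4.1d, those left unaligned went through Bowtie2, and both sets were joined. Expectation-Maximization quantification against Ensembl release 84 followed, in which a read can be shared among transcripts. The deposited table holds CPM for 59074 genes, each raised by 0.0001, and its columns sum to 42.9 to 67.2% of the full CPM scale. The CPM of 1 read was derived from the spacing of low values, and 80.6 to 81.7% of values lay within 0.02 of a whole read, so no count test was used and read numbers are rounded estimates. Intervals cover counting error only.

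The 14294 genes averaging at least 1 CPM were tested on log2(CPM + 1) in limma 3.58.1 (R 4.3.3), two-sided, with a variance trend, a block for the cell line and Benjamini-Hochberg adjustment at 0.05. A fold on this scale understates changes of low genes. The block follows the cell line: after subtraction of group means, libraries of the same line correlated at 0.948 to 0.967 and of different lines at -0.505 to -0.467. No line had separate cultures, so the error behind a p-value is the spread of the changes between these lines, largely pooled over genes. It does not measure a spread between cultures of a line. The script was tested on simulated data. The alternatives were no block, median centring, a pseudocount of 0.1, no filter, no trend, the paired t-statistic and leaving out lines or libraries.

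The 6 genes and the lists were chosen with earlier results of these data known. Named were the 6 genes, list genes past the threshold, up to 3 further genes per list of highest mean CPM, the 5 genes most correlated with TXNIP and with ARRDC4, and HOTAIRM1. Genes outside this rule are said to be. Some genes near those described are not reported here. Of the listed symbols, TKFC was not found in the table. Positions and transcript lengths are from GENCODE v44 (hg38), promoter windows from RefSeq (GRCh38.p14). Python 3.11.15, pandas 2.3.3, numpy 2.4.6, scipy 1.17.1 and matplotlib 3.10.9 were used.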

Additional observations from a re-analysis of the deposited data

Results flagged for a closer look

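In 13 of the genes named among the 6 and the lists, the change of log2(CPM + 1) on knock-down was positive in 1 cell line and negative in another with both counting intervals clear of no change, and, for genes other than the 6, also after subtraction of each line's median. Further named genes with opposite signs, such as ARRDC2 and SLC2A3, did not meet these conditions. With 1 library per line and condition none of these differences was tested. How many of all genes meet the same conditions was not counted, so the 13 are a description and do not set these genes apart. Most of the list genes were named for the highest mean CPM of their list, and counting intervals are narrow at high levels. The difference given is the change in the first line minus that in the second. MLX differed by 0.414 between LN-229 (0.27) and T98G (-0.15), and after subtraction of each line's median both values were positive (0.26 and 0.04). Of the targets of MondoA and ChREBP, SCD differed by 0.398 between LN-229 (0.03) and U251 (-0.37), ACLY by 0.505 between LN-229 (0.13) and T98G (-0.37), and HK2 by 1.82 between U251 (1.50) and T98G (-0.32). Of the thioredoxin system, PRDX1 differed by 0.505 between LN-229 (0.08) and U251 (-0.43), and TXNRD1 by 0.483 between LN-229 (0.10) and T98G (-0.38).

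After HK2, the next widest of these differences were those of FBXO32, SLC2A1 and HK1. SLC2A1 differed by 1.03 between U251 (0.46) and T98G (-0.57), HK1 by 0.927 between U251 (0.45) and T98G (-0.48), and FBXO32 by 1.07 between U251 (0.19) and T98G (-0.88). Smaller ones were those of ADPGK, 0.547 between LN-229 (0.18) and T98G (-0.37), SMURF2, 0.419 between U251 (0.09) and T98G (-0.33), ERRFI1, 0.389 between U251 (0.23) and LN-229 (-0.15), and SGK1, 0.638 between LN-229 (0.40) and T98G (-0.24). Apart from MLX, the signs stayed opposite after that subtraction.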

How the results depend on the processing

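The mean change of TXNIP was 1.17 to 2.15 when a cell line was left out, the lowest without U251. Its direction was the same under all 5 alternatives. Since the rise had led to the choice of TXNIP and was present in each line, leaving out a line could not turn it. The kept direction is therefore no further evidence. The number of genes past the threshold on knock-down, 286, was 0 with no replicate block (29 at an unadjusted p under 0.05), 41 after median centring, of which 15 were higher against 59 of 286 in the reported fit, 683 with a pseudocount of 0.1, 0 with no filter (2479 unadjusted), 185 with no variance trend and 0 for the paired t-statistic alone (896 unadjusted). It was 0 to 270 when a cell line was left out: 0 without T98G (1206 unadjusted) and 149 without U251. Of the list genes, 2 passed in the reported fit, and 0 did with no replicate block, 0 after centring, 0 with no filter, 0 for the paired t-statistic alone and 8 with a pseudocount of 0.1 (HK2, SLC2A3 and CEBPD higher, TXN, MSRB3, PRDX3, PRDX6 and GLRX lower). This count was 0 to 2 when a cell line was left out, 0 without T98G and 1 (MSRB3) without U251. HOTAIRM1 itself lost its call under 6 of 9 alternatives (adjusted p up to 1 after rounding). The fit with the cell line as block is the reported one, and no knock-down call remained without it.

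Between the lines, 5107 to 8046 genes passed between T98G and LN-229 when a library was left out, the lowest without siHOTAIRM1 cells of T98G. Centring moved the share of higher calls between U251 and T98G from 64.0% to 50.5%. Of 180 alternative values of the 6 genes between lines, 152 kept direction and call, 16 lost the call, 3 gained it and 9 changed direction without a call. Those 9 were MLXIP (0.021 after centring, -0.21 to 0.085 when a library was left out) and MLX (0.030 after centring, -0.24 to 0.13 when a library was left out), T98G minus LN-229, TXNIP, U251 minus LN-229 (-0.29 to 1.13 when a library was left out, the lowest without siHOTAIRM1 and the highest without siControl cells of U251), and ARRDC3, U251 minus T98G (-0.18 after centring, -0.24 to 0.31 when a library was left out). TXNIP passed between U251 and LN-229 with a pseudocount of 0.1 (adjusted p = 0.0419) and without siControl cells of U251 (3.89e-05). The mean change of ARRDC2 was 0.0070 without T98G, and that of ARRDC4 was 1.07 with a pseudocount of 0.1. Causes were not tested. Depth limits ARRDC4 in U251 most, at 1 and 28 reads.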
